A study of Mus musculus with 8 samples.

Results

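The sterol and fatty acid synthesis genes are 35 genes that make cholesterol and fatty acids, sense sterols, or move sterols within and out of the cell. The probes were taken by gene name: every probe whose gene name in the scanner files was 1 of the 35 listed symbols, which gave 65 of the 41174 probes on the array. Of the 35 genes, 32 were bright enough to be tested, among 14882 genes and transcripts.

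Transcripts were measured on 8 one-colour arrays in cultured smooth muscle cells of the C57BL/6 mouse aorta, the contractile cells of the vessel wall. The AngII+CsA cultures (4) received 1 µM angiotensin II, a peptide hormone that contracts arteries, with 200 ng/ml cyclosporin A, an inhibitor of the phosphatase calcineurin. The AngII cultures (4) received 1 µM angiotensin II without cyclosporin, so every culture carried the hormone, and cells without it were not analysed here. The labels describe separate primary cultures, grown with fetal bovine serum and numbered 1 to 4 in each treatment. Arrays with the same number shared a slide and a scan, so a difference between replicate numbers can lie in the cultures, the slide or the scan, and these cannot be told apart. Between 42.8% and 51.7% of the spots of an array were well above background.

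Cholesterol is built from acetyl-CoA through mevalonate, farnesyl diphosphate, squalene and lanosterol. When membrane sterol is low, SCAP escorts the membrane-bound factor SREBP2 to the Golgi, where proteases release the part that activates the genes of this pathway together with NF-Y and Sp1, whereas INSIG proteins hold SCAP back when sterol is plentiful. SREBP1 acts more on fatty acid synthesis. Liver X receptors respond to oxysterols and activate the sterol exporters ABCA1 and ABCG1, so that synthesis and export are commonly regulated in opposite directions.

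Promoter sequences were matched for 27 of the 35 members, in 36 promoters (250 bases before to 50 after the start, RefSeq, GRCm38.p6). Both strands were searched, and matches of different motifs were counted separately, so that they may share bases. The NF-Y box CCAAT lay in 13 of the 14 synthesis enzyme genes with a promoter and in 19 of the 27 members, against 41.1% of all 27025 genes in the RefSeq table. The Sp1 box GGGCGG was also held by 13 of the 14 enzyme genes, and by 21 of the 27 members, against 38.2% of all genes. The strict sterol regulatory element TCACNCCAC was held by 1 member, Hmgcs1, at position -137 from the start, against 1.44% of all genes. The E-box CACGTG was held by 6 of the 27 members, against 8.09% of all genes, and a direct repeat of AGGTCA spaced by 4 bases, as liver X receptors bind, by 0, against 0.0148%. These are letter matches in a fixed window and not shown to be bound sites. The promoters below are a choice among the members and do not stand for all of them. Those of Mvk (5), Hmgcs1 (4) and Nsdhl (4) hold the most NF-Y boxes of any member. That of Acat2, the enzyme gene without an NF-Y box, is not shown. For Pmvk (2 promoters) and Dhcr7 (3 promoters) the one that holds the NF-Y box is shown, and their other promoters lack it, as does that of the exporter gene Abca1. Capitals mark CCAAT, its reverse complement ATTGG and, in Hmgcs1, the sterol element, and each sequence runs 5′ to 3′ on the strand named.
Hmgcs1, chr13:119690101-119690400, plus strand: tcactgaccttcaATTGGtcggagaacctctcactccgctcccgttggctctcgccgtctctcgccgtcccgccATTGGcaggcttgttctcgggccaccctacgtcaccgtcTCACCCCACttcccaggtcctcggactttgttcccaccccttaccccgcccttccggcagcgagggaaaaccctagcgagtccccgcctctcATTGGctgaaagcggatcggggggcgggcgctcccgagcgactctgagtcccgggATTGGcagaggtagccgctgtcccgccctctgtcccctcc
Mvk, chr5:114444019-114444318, plus strand: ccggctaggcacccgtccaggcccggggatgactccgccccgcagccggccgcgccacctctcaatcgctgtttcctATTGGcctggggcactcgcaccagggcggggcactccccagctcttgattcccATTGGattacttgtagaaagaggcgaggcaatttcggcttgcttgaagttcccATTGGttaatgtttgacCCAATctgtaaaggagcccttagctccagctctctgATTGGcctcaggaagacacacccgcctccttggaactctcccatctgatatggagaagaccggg
Pmvk, chr3:89454291-89454590, plus strand: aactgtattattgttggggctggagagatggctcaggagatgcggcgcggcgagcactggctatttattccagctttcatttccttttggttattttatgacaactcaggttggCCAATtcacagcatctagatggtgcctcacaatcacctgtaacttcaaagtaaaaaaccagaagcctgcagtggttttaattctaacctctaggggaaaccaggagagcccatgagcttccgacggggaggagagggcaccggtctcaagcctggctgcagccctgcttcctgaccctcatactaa
Nsdhl, chrX:72918271-72918570, plus strand: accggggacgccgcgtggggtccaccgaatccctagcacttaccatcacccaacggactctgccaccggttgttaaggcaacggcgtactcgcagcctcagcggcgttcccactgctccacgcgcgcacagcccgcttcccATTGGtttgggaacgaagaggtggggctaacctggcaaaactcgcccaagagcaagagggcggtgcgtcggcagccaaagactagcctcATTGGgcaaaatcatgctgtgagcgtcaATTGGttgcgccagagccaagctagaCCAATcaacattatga
Dhcr7, chr7:143829964-143830263, plus strand: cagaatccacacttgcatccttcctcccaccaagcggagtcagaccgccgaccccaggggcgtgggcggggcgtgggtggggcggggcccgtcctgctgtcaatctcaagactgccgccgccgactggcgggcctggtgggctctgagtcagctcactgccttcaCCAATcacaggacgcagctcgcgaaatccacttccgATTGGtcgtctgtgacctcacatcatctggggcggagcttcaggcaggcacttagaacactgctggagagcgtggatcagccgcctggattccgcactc
Srebf2, chr15:82147019-82147318, plus strand: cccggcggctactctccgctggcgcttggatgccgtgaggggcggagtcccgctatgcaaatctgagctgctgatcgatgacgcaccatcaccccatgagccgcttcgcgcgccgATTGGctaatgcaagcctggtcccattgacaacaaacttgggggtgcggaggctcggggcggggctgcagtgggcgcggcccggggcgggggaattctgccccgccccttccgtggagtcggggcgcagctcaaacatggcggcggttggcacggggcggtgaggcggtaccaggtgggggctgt
Abca1, chr4:53159846-53160145, minus strand: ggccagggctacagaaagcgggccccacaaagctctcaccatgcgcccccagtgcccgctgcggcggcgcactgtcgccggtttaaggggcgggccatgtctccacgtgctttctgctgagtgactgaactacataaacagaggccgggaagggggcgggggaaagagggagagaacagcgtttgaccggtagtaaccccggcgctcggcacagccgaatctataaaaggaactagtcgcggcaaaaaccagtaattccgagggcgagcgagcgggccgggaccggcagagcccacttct

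Of 9 smooth muscle markers, 8 were bright enough to test, as were 4 of 5 fibroblast markers, but only 2 of 6 endothelial, 3 of 6 macrophage and 2 of 6 adipocyte markers. The endothelial genes Pecam1, Cdh5 and Tie1, the macrophage genes Adgre1 and Itgam and the adipocyte genes Lep and Cfd were above background on 0 arrays, and the adipocyte genes Adipoq and Fabp4 on 1 each. Other members of these lists were detected. The macrophage genes Cd68, Csf1r and Cd14, the endothelial Tek and the adipocyte Cidec were above background on 8 arrays, the endothelial Vwf on 7 and the adipocyte Plin1 on 4. The smooth muscle gene Myocd was above background on 1. In RNA of whole cultures, fewer cells of a type and less RNA per cell cannot be told apart. All values below are log2 of the probe signal relative to the 75th percentile of its array, so a value of 0 is a signal at that percentile and a difference of 1 is a doubling. Levels of different genes come from different probes and are not set against each other.

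Adding cyclosporin to angiotensin II did not move any member past the test. Of the 32 tested members, 18 were higher and 14 lower in AngII+CsA cultures, against 6454 higher and 8428 lower of all 14882 genes tested. Of the members, 29 differed by less than 0.25 log2, which is 90.6% of them, against 83.8% of all genes tested. By limma with Benjamini-Hochberg adjustment over all genes, 0 of 32 members passed on the groups alone, where 0% of all genes did, and 0 with the replicate number as a block, where 0.0269% (4 genes) did. At an unadjusted p under 0.05 the groups alone gave 0 members, against 0.282% of all genes, and the block gave 1 member, Pmvk, against 5.31% of all genes. The median difference of the members was 0.01, against -0.03 over all genes, and the medians within the pairs of replicates 1 to 4 were -0.01, 0.08, 0.03 and -0.15. That median ran from -0.17, without AngII+CsA replicate 3, to 0.19, without AngII replicate 3, settings that leave the replicate numbers unequal between the groups. Leaving out whole pairs with the block, it ran from -0.03 to 0.03. With the block the 95% intervals of the members had a median half-width of 0.31 and reached from -0.87 (Pmvk and Stard4) to 0.92 (Nr1h2).

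**Figure D1:**
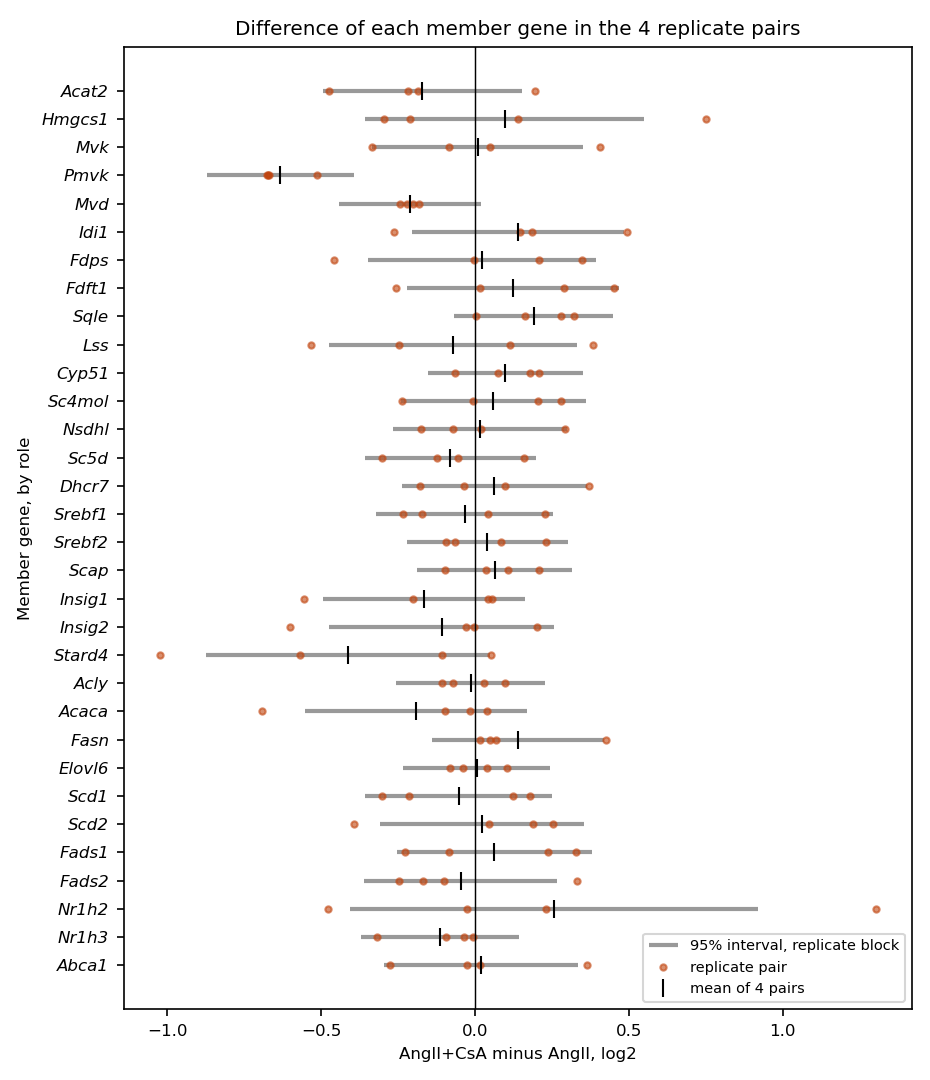
Difference of each of the 32 tested members between AngII+CsA and AngII (log2, x axis), ordered by role. Points are the 4 replicate pairs, the tick is their mean and the grey line is the 95% interval with the replicate block. The interval of Pmvk lies wholly below 0 and those of the other members cross it, although Pmvk does not pass the adjustment over all genes.

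The early steps join acetyl-CoA units into mevalonate and its phosphates. Pmvk, the phosphomevalonate kinase of this stretch, had log2 signals of 0.67, 1.21, 2.22 and 2.46 on AngII+CsA arrays 1 to 4, against 1.35, 1.88, 2.74 and 3.13 on AngII arrays 1 to 4. The 2 groups overlap, but within every pair the AngII+CsA array was the lower one, by a similar amount. The pair differences were -0.68, -0.67, -0.51 and -0.67, with a mean of -0.63, a 1.55-fold lower level, and a 95% interval of -0.87 to -0.39 with the block. Its p with the block was 0.000533, rank 13 of 14882, and the adjusted p by limma was 0.603. The probe lies at chr3:89595479-89595538 in build mm7, the build of the array annotation. A second Pmvk probe covers the 60 bases just before it and was above background on 1 of 8 arrays. Its difference had the other sign, at 0.60, but it was too dim to be tested, so the value rests on 1 probe.

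Mvd, which decarboxylates mevalonate diphosphate, was also lower in AngII+CsA in every pair, by a smaller step. It had -2.23, -1.72, -2.04 and -1.76 on AngII+CsA arrays 1 to 4, against -1.98, -1.54, -1.82 and -1.55 on AngII arrays 1 to 4. The mean difference was -0.21, with a 95% interval of -0.44 to 0.02 and an adjusted p of 0.885 by limma with the block. In all, 3 members were lower in all 4 pairs (Pmvk, Mvd and Nr1h3), against 10.2% of all genes, and 2 were higher in all 4 (Sqle and Fasn), against 4.79%. Mvk, the mevalonate kinase that acts just before Pmvk, differed by 0.01, with pair differences of 0.41, 0.05, -0.34 and -0.08.

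Acat2, the thiolase that joins the first acetyl-CoA units, had 2.18, 1.81, 3.52 and 2.85 on AngII+CsA arrays 1 to 4, against 2.37, 1.61, 3.74 and 3.32 on AngII arrays 1 to 4. It was lower with cyclosporin in 3 of 4 pairs, with a mean of -0.17 (95% interval -0.49 to 0.15). Hmgcs1, the synthase that makes the precursor of mevalonate, and Mvd were the enzymes least like the others over the replicate numbers, with correlations of -0.29 and 0.16 with the median enzyme profile. The values of Hmgcs1 were -1.93, -1.48, -2.50 and -1.06 on AngII+CsA arrays 1 to 4, against -1.64, -1.62, -3.25 and -0.84 on AngII arrays 1 to 4. The lowest values are those of number 3, where most other enzymes were highest, and the probe was above background on 7 of 8 arrays. A second Hmgcs1 probe, also dim, had its highest AngII+CsA value at number 3, with -3.69, -3.36, -2.20 and -2.94 on AngII+CsA arrays 1 to 4, against -2.99, -3.59, -2.58 and -2.41 on AngII arrays 1 to 4. The 2 probes had a correlation of -0.22 over the 8 arrays, so the direction of Hmgcs1 between numbers depends on the probe.

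The middle steps turn mevalonate diphosphate into squalene. Idi1, the isomerase that balances the isoprene units, had 0.42, 0.60, 2.35 and 1.12 on AngII+CsA arrays 1 to 4, against 0.27, 0.42, 1.86 and 1.38 on AngII arrays 1 to 4. The array annotation places both Idi1 probes on chromosome 2 of mm7, while RefSeq has the gene on chromosome 13, and a match to a copy elsewhere was not looked for. Fdps, which makes farnesyl diphosphate, had 4.13, 4.52, 6.19 and 5.89 on AngII+CsA arrays 1 to 4, against 4.58, 4.17, 5.98 and 5.89 on AngII arrays 1 to 4. In both groups, arrays 3 and 4 stand more than 1 log2 above arrays 1 and 2, while the 2 groups differ by 0.02. Fdft1, squalene synthase, followed the same order, with means over both groups of 1.13, 1.69, 3.28 and 2.96 at numbers 1 to 4. Its difference between AngII+CsA and AngII was 0.12.

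Sqle, the epoxidase that commits squalene to sterols, was at or above its AngII partner in every pair with cyclosporin. It had 1.57, 2.15, 2.73 and 2.68 on AngII+CsA arrays 1 to 4, against 1.41, 1.87, 2.41 and 2.68 on AngII arrays 1 to 4. The pair differences were 0.16, 0.28, 0.32 and 0.00, a mean of 0.19 with a 95% interval of -0.07 to 0.45, and the adjusted p was 0.89 by limma with the block. The differences of the later enzymes were small: 0.10 for Cyp51, which demethylates lanosterol, 0.06 for the methyl sterol oxidase Sc4mol, 0.02 for Nsdhl, which removes the oxidised methyl carbon, -0.08 for the desaturase Sc5d and -0.07 for the cyclase Lss. Dhcr7, a reductase of the last step to cholesterol, had -0.39, 0.17, 2.05 and 2.33 on AngII+CsA arrays 1 to 4, against -0.36, 0.07, 1.68 and 2.51 on AngII arrays 1 to 4. The 2 groups overlap almost wholly, with a difference of 0.06, while the spread over the numbers was 2.79 log2, a 6.93-fold range. Of the enzymes not tested, both Hsd17b7 probes were above background on 0 arrays. Ebp, the sterol isomerase, was above background at number 1 alone, at -1.19 on AngII+CsA array 1 and -0.83 on AngII array 1, with -5.63 to -4.88 on the other arrays.

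**Figure D2:**
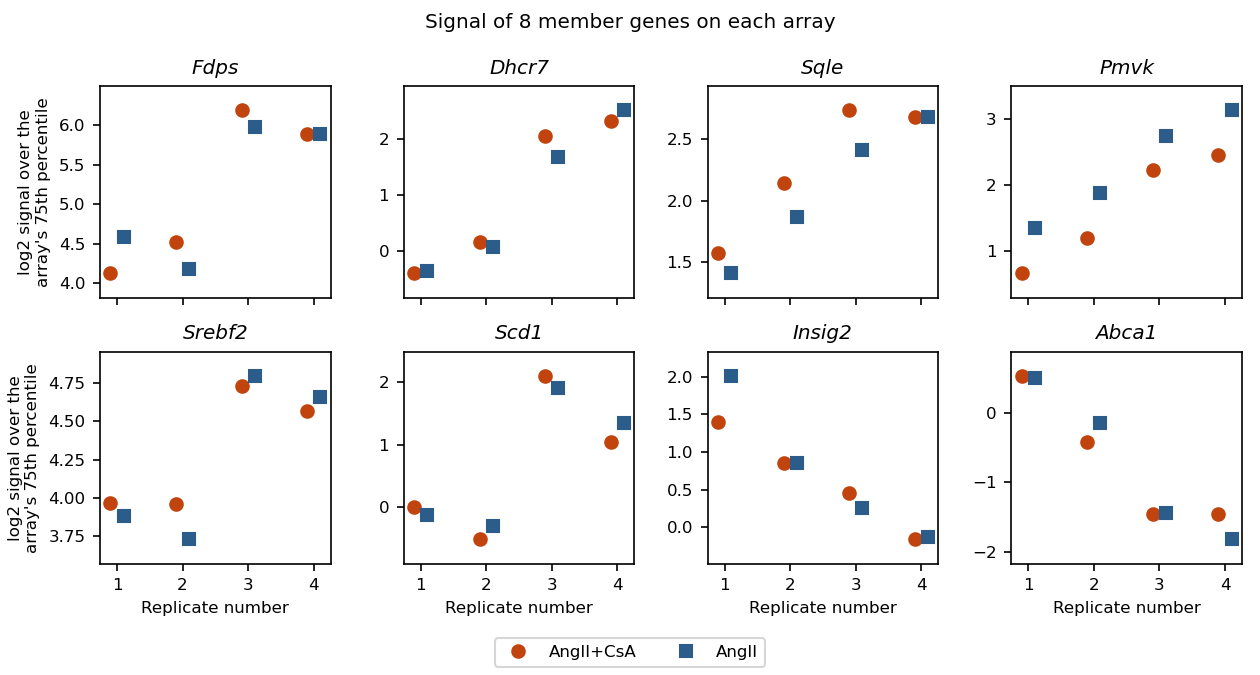
Log2 signal over the array's 75th percentile (y axis, own scale per gene) of 8 members by replicate number (x axis). Circles are AngII+CsA arrays and squares AngII arrays, 1 point an array. Pmvk circles lie below their squares at every number, the circles and squares of the other genes lie close together at most numbers, and Insig2 and Abca1 are highest at number 1 where the other 6 genes are low.

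Most members differed between replicate numbers, whichever the treatment. The moderated F-test of the number terms, fitted with the group by limma, called 28 of 32 members at an adjusted p under 0.05, against 68% of all genes (10121). Without AngII replicate 4, AngII+CsA replicate 4, AngII replicate 2 or both arrays of number 4, the count over all genes was 5771, 5994, 6304 and 6529. The members called ran from 21, without both arrays of number 3, to 30, without AngII replicate 1. Those are other settings than the ones of the 4 gene counts, and the shares of all genes called in them are not given here. The 4 that did not pass were Insig1, Acaca, Nr1h2 and Nr1h3, with adjusted p of 0.13, 0.38, 0.1 and 0.474. The range of the 4 number means exceeded 1 log2 in 21 members, 65.6%, against 42.4% of all genes. Its median was 1.45 for the members, 1.55 for the synthesis enzymes and 0.90 for all genes. Per the labels the cultures are separate, and whether same-numbered ones came from the same animals is not stated. These values thus describe differences between numbered pairs of arrays, set against the disagreement of same-numbered arrays.

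All 15 tested synthesis enzymes passed this test with all arrays, against 68% of all genes, with the smallest adjusted p for Dhcr7 (0.000977) and the largest for Mvd (0.0462). In every setting run 11 of the enzymes kept the call, and the share of all genes that did so was not counted. Mvd lost the call under normexp background correction (adjusted p = 0.835) and Mvd, Cyp51 and Lss under quantile normalization (0.0984, 0.163 and 0.0565). With the mean of a gene's probes Cyp51 and Hmgcs1 lost it (0.353 and 0.0923). Of the 15, 10 were highest at number 3 and 4 at number 4, against 34% and 23.8% of all genes. The lowest mean lay at number 1 in 8 and at number 2 in 6, against 36.3% and 20.1% of all genes. Taking each gene's deviation from its group mean, the median over the enzymes was -0.70, -0.49, 0.65 and 0.32 on AngII+CsA arrays 1 to 4, against -0.57, -0.56, 0.74 and 0.56 on AngII arrays 1 to 4. Both treatments thus showed the same order of numbers, low at 1 and 2 and high at 3 and 4. Over all genes tested the medians by number were -0.11, -0.06, 0.07 and 0.06. The size of the shift depended on the arrays and settings used: without replicate 3 the medians at numbers 1 and 2 were -0.36 and -0.23, without AngII+CsA replicate 3 alone or without replicate 4 that at number 2 was -0.34, without replicate 1 that at number 3 was 0.50, without replicate 2 that at number 4 was 0.24 and without replicate 3 it was 0.62, and under normexp background correction that at number 3 was 0.50. The sign of each stayed the same under the settings run.

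The enzymes shared a profile over the arrays. Over the 8 arrays, which fall into 4 pairs that share a slide, the mean pairwise Pearson correlation of the deviations was 0.63 among the 15 enzymes, 0.27 among all 32 members and 0.02 among all genes. It was 0.09 among the 8 fatty acid genes and -0.11 among the 5 SREBP regulators. Among the tested markers it was 0.26 for the 8 of smooth muscle and 0.08 for the 4 of fibroblasts. For the short lists it was 0.53 (3 macrophage genes), 0.57 (2 endothelial genes) and 0.95 (2 adipocyte genes), so a shared profile was not particular to the enzymes. Of the 15 enzymes, 10 correlated above 0.9 with the median enzyme profile, to which they contribute, and 6 of the 17 other members did, against 9.38% of all genes. Outside the synthesis enzymes these were Srebf2, Fads2, Scd2, Scd1, Scap and Stard4. Among genes with a current symbol outside the list, those with the closest profile were Ninj1 (0.996), Cryl1 (0.995), Xylt2 (0.994), Ifi35 (0.994), Rab40c (0.994), Papss2 (0.994), Kdelr1 (0.993) and Bcl2l12 (0.993). These correlations describe 4 pairs of arrays and carry no test.

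**Figure D3:**
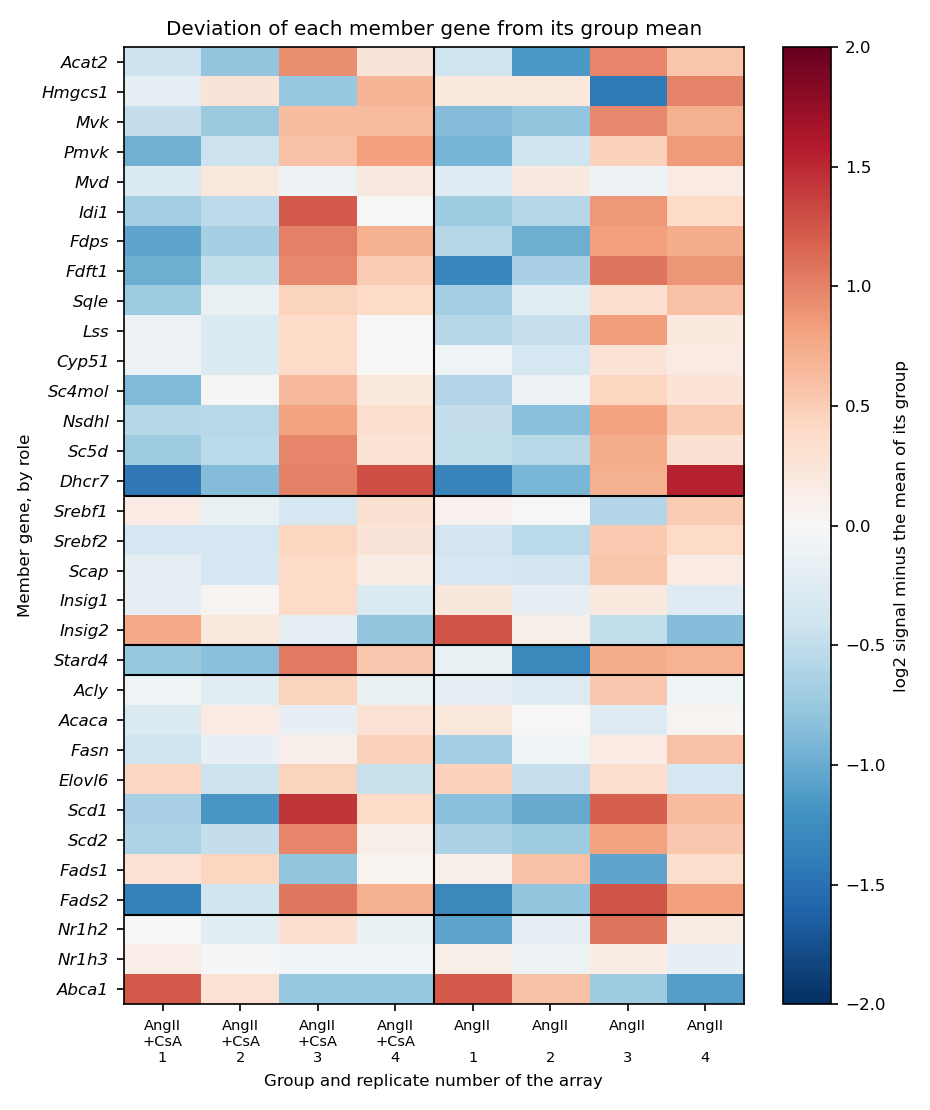
Deviation of the log2 signal of the 32 tested members (rows, by role) from the mean of their group on each array (columns, AngII+CsA then AngII, replicate numbers 1 to 4). Red is above and blue below the group mean, and the colour scale ends at -2 and 2. Both groups show the same columns, with most enzymes blue at numbers 1 and 2 and red at 3 and 4, and with Insig2 and Abca1 the other way.

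Among the regulators, Srebf2, which encodes the main activator of the synthesis enzymes, had the profile closest to theirs of all members (correlation 0.98, rank 78 of 14858 genes). It had 3.97, 3.96, 4.73 and 4.57 on AngII+CsA arrays 1 to 4, against 3.88, 3.73, 4.79 and 4.66 on AngII arrays 1 to 4. Arrays 3 and 4 lie above arrays 1 and 2 in both groups, and AngII+CsA and AngII differed by 0.04 (95% interval -0.22 to 0.30). A second Srebf2 probe followed the first at a correlation of 0.91, but another, dimmer one ran against it at -0.56, so not all Srebf2 sequence on the array moved alike. Scap, the escort protein, ranged from 5.54 at number 2 to 6.38 at number 3 and differed by 0.06 between AngII+CsA and AngII.

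Srebf1, the lipogenic relative, did not share this order. Its values were 0.29, -0.02, -0.21 and 0.42 on AngII+CsA arrays 1 to 4, against 0.25, 0.15, -0.44 and 0.66 on AngII arrays 1 to 4. It was lowest at number 3, where Srebf2 was highest, and differed by -0.03 between the treatments. Insig2, an SREBP retention protein, ran against the enzyme profile, at a correlation of -0.81 (rank 14239 of 14858 genes). It had 1.40, 0.85, 0.45 and -0.16 on AngII+CsA arrays 1 to 4, against 2.0, 0.85, 0.25 and -0.13 on AngII arrays 1 to 4. Its number 1 arrays are the highest of each group and its number 4 arrays the lowest, a spread of 1.85 log2 (adjusted p = 0.00416 for number).

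Insig1, the sterol-responsive sister of Insig2, gave 2 answers from 2 bright probes. On the probe with the higher mean it had 2.18, 2.40, 2.75 and 2.06 on AngII+CsA arrays 1 to 4, against 2.74, 2.35, 2.71 and 2.26 on AngII arrays 1 to 4. This probe showed no difference between numbers past the test. On the other probe the values were 0.33, 2.06, 0.47 and 1.79 on AngII+CsA arrays 1 to 4, against 0.36, 2.02, 0.63 and 2.07 on AngII arrays 1 to 4. There numbers 2 and 4 stood more than 1 log2 above 1 and 3 in both groups (adjusted p = 0.00166 over all probes), and the 2 probes correlated at -0.63. The AngII+CsA to AngII differences of the 2 probes were -0.17 and -0.11. Of 12 second probes tested, in 10 genes, 7 correlated above 0.5 with the main probe of their gene and 5 below 0.

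Stard4, a carrier that moves cholesterol between membranes, had the second largest mean difference with cyclosporin after Pmvk, but an uneven one. It had -1.98, -2.06, -0.18 and -0.68 on AngII+CsA arrays 1 to 4, against -0.95, -2.11, -0.07 and -0.11 on AngII arrays 1 to 4. Pairs 1 and 4 were lower with cyclosporin, by -1.03 and -0.57, and pairs 2 and 3 differed by 0.05 and -0.11. The mean of -0.41 had a 95% interval of -0.87 to 0.05 and an adjusted p of 0.885 by limma with the block. Over the numbers it followed the enzymes, at a correlation of 0.92.

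Fatty acid genes split into those that followed the sterol enzymes over the numbers and those that did not. Scd1, the desaturase that makes oleic from stearic acid, had 0.00, -0.51, 2.09 and 1.05 on AngII+CsA arrays 1 to 4, against -0.12, -0.29, 1.91 and 1.35 on AngII arrays 1 to 4. Scd2, its close relative, had 4.60, 4.73, 6.19 and 5.33 on AngII+CsA arrays 1 to 4, against 4.56, 4.48, 6.00 and 5.72 on AngII arrays 1 to 4. Both desaturases were highest on the number 3 arrays of both treatments, with AngII+CsA to AngII differences of -0.05 and 0.02. A cross-match between the probes of these close paralogs was not looked for. Fads2, which desaturates polyunsaturated fatty acids, had means over both groups of 2.15, 2.87, 4.62 and 4.23 at numbers 1 to 4, a 5.53-fold range. Fads1, its partner enzyme, was lowest at number 3, at -4.63, but it was above background on only 4 of 8 arrays.

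Fasn, the fatty acid synthase, had 3.14, 3.36, 3.62 and 3.99 on AngII+CsA arrays 1 to 4, against 2.71, 3.31, 3.56 and 3.98 on AngII arrays 1 to 4. AngII+CsA was the higher in every pair, by 0.43 in pair 1 and by at most 0.07 in the others, a mean of 0.14 with a 95% interval of -0.14 to 0.42. A dim second Fasn probe, above background on 4 arrays, differed by -0.26. Acaca, the acetyl-CoA carboxylase that supplies malonyl-CoA, had -2.18, -1.72, -2.06 and -1.59 on AngII+CsA arrays 1 to 4, against -1.49, -1.70, -1.96 and -1.63 on AngII arrays 1 to 4. Its mean difference of -0.19 came mostly from pair 1, at -0.69. Acly, which makes cytosolic acetyl-CoA from citrate, and Elovl6, which lengthens palmitate, differed by -0.01 and 0.00. Elovl6 had its own order over the numbers, 0.11, -0.76, 0.08 and -0.72, with 1 and 3 above 2 and 4.

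Of the export side, Abca1, which loads cholesterol onto apolipoproteins, ran against the synthesis enzymes. It had 0.53, -0.41, -1.46 and -1.46 on AngII+CsA arrays 1 to 4, against 0.51, -0.14, -1.44 and -1.82 on AngII arrays 1 to 4. In each group array 1 is highest and arrays 3 and 4 lowest, a 4.47-fold range of number means (adjusted p = 0.00178 for number). Its correlation with the enzyme profile was -0.94, rank 14791 of 14858, and 1.31% of all genes lay under -0.9. Between AngII+CsA and AngII, Abca1 differed by 0.02, with a 95% interval of -0.30 to 0.34 and pair differences of both signs. Abcg1 was above background on 2 AngII+CsA arrays and 0 AngII arrays, too dim for a fold.

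The liver X receptor genes did not pass the test of number. Nr1h3 had -0.47, -0.62, -0.65 and -0.67 on AngII+CsA arrays 1 to 4, against -0.38, -0.58, -0.33 and -0.66 on AngII arrays 1 to 4. All 4 pairs were lower with cyclosporin, by 0.01 to 0.32 log2, with a mean of -0.11 and a 95% interval of -0.37 to 0.14. Nr1h2, the other receptor gene, had the widest interval of the members, and in its pair 1 AngII+CsA exceeded AngII by 1.30. Its other pairs differed by 0.23, -0.48 and -0.03.

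Another 38 sterol and lipid genes were set beside the members, of which 34 were tested. In AngII+CsA 18 of the 34 were higher and 16 lower, against 6454 higher and 8428 lower of all genes. By limma 0 were called in either fit and 0 had an unadjusted p under 0.05 with the block. Among those with the smallest p with the block were the cholesterol carrier Stard5, with a difference of -0.38, and the oxysterol-forming Cyp27a1, with 0.25. Between numbers 23 of 34 passed, near the 68% of all genes. The largest spreads over number means were those of the lysosomal cholesterol carrier Npc2 (2.44), the sterol reductase Tm7sf2 (2.10) and Cyp27a1 (2.0). Tm7sf2 had means over both groups of 0.39, -0.15, 1.59 and 1.95 at numbers 1 to 4, low at 1 and 2 and high at 3 and 4, while Npc2 had 0.63, 1.81, 0.26 and 2.69, high at 2 and 4.

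Most markers of smooth muscle also differed between the numbers. Of the 8 tested, 6 were lowest at number 1 and 5 highest at number 3. The actin gene Acta2 had means over both groups of 5.59, 7.19, 8.75 and 8.49 at numbers 1 to 4, and the median deviation of the 8 tested smooth muscle markers was -1.62, -0.16, 0.96 and 0.67. The actin-binding gene Cald1 ran otherwise, with means of 3.51, 2.63, 2.77 and 2.16, and the myosin gene Myh11, with 0.53, 0.64, 0.48 and -0.06, did not pass the test of number. Fibroblast markers were mixed. The median deviation of the 4 tested ones was 1.00, -0.02, -0.33 and -0.44, and 3 of the 4 were highest at number 1, such as the matrix proteoglycan Dcn with means of 10.0, 9.41, 8.53 and 8.13. The fourth, Pi16, was lowest there, with means of -0.79, -0.49, -0.56 and -0.52, and did not pass the test of number (adjusted p = 0.407). The 3 tested macrophage markers had median deviations of -0.61, 0.05, 0.31 and 0.23, the 2 endothelial ones -0.16, -0.27, 0.15 and 0.28 and the 2 adipocyte ones -0.33, 0.28, -0.27 and 0.32. The share of spots above background was lowest on the number 3 arrays, at 43.7% for AngII+CsA and 42.8% for AngII. The part of these in the differences of the synthesis genes between numbers was not tested.

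**Figure D4:**
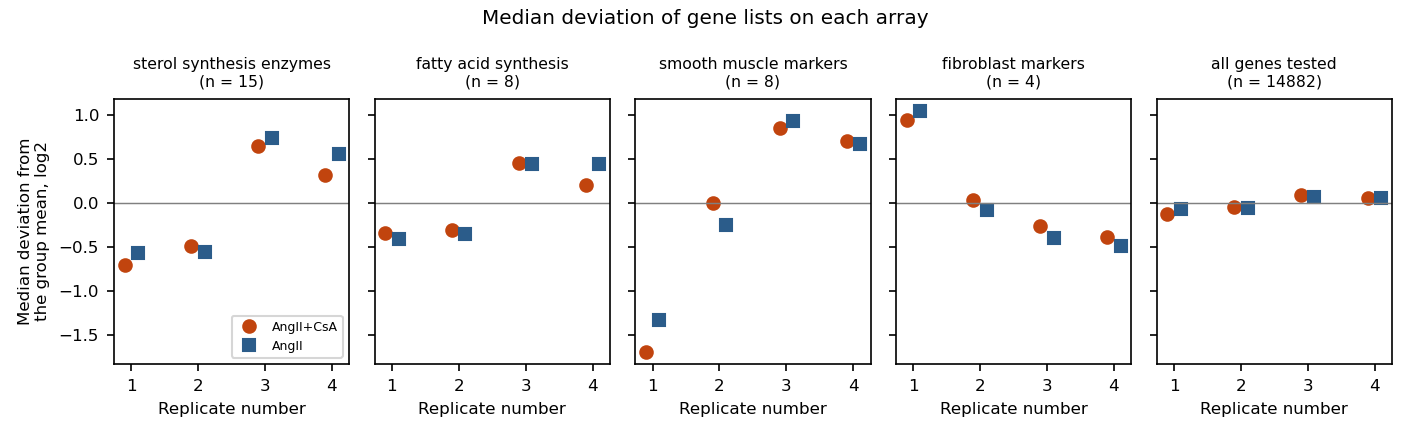
Median deviation from the group mean (log2, y axis) of 4 gene lists and of all genes tested, on each array by replicate number (x axis). Circles are AngII+CsA arrays and squares AngII arrays. Sterol enzymes, fatty acid genes and smooth muscle markers are low at numbers 1 and 2 and high at 3 and 4, except that smooth muscle markers lie near 0 at number 2, while fibroblast markers are highest at number 1.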

How the data were processed

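The files deposited by the authors give, per the file headers, an intensity per spot on a linear scale (background-subtracted processed signal, mean signal and local background) from Agilent Feature Extraction 9.5.3.1 on array design 014868. A log2 table from the authors, whose method is not given in the sources used here, served as an alternative. It had the same median, 3.008, on every array. Its results lay close to those of quantile normalization, such as a Pmvk difference of -0.66 in both, so these settings are not separate checks. Analysed here were log2 processed signals minus the 75th percentile of each array, without control and outlier spots. Probes above background on at least 4 of 8 arrays were kept (19530), and the probe with the highest mean stood for its gene. Probe positions are those of the headers' build mm7, and whether they lie in an exon was not looked up. Gene names and promoters came from RefSeq tables (GRCm38.p6): 22951 probes were named by accession, 6659 had a current symbol and 11564 kept their name.

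Tests were two-sided, by limma 3.58.1 in R 4.3.3 (lmFit, eBayes), with Benjamini-Hochberg adjustment over all genes at 0.05. The main fit used the groups alone and the alternative the replicate number as a block. Same-numbered arrays (the numbers come from the labels) deviated together, with correlations of their deviations of 0.70 to 0.86 over all genes, against -0.79 to 0.29 for other arrays. They were treated as pairs in the block fits and the pair differences, but not in the main fit. For AngII+CsA against AngII, the alternatives of background correction, scaling, filter and choice of probe were also run with the groups alone. The blocked result was thus not run under other processing. The test was checked on simulated data with added changes larger than the mean difference of any member. That check does not show how well differences of the size seen in the members would be found. With the groups alone the p-values measure the spread between the cultures and arrays of a group, and with the block the spread of the pair differences. Those of the number test set the numbers against the disagreement of same-numbered arrays, which share a slide and a scan. They do not measure the spread between cultures within a number and treatment.

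Members, gene lists and settings were chosen with earlier results of these data known. Values in every array are given for Hmgcs1, Sqle, Idi1, Insig1, Srebf1, Srebf2, Stard4, Fasn, Scd1, Scd2, Abca1 and Nr1h3 and for the 6 members with the smallest blocked p. Those of Fdps, Dhcr7 and Insig2 were added after their values were seen. Named outside the members were the 8 genes most like the enzyme profile and, of the other lipid genes, 3 by p and 3 by spread, of which 1 is not reported here. Alternatives covered background correction, scaling, filter, outlier spots, choice of probe, the authors' table, the variance model and omitted arrays.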

Additional observations from a re-analysis of the deposited data

How the results depend on the processing

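For AngII+CsA against AngII, 0 of the 32 members were called under the other settings, in 702 member differences. Over all genes the groups alone called 0, the replicate block 4 and the replicate number as a random block 6, and the block changed no call of a member. The remaining settings, most of them with the groups alone, also called 0 of all genes. A count of 0 members is therefore what all genes gave there, and these settings add little about the members. The differences of the members were small and the sign of many was not stable: 26 of the 32 changed sign with 1 array left out, which leaves the replicate numbers unequal between the groups, and 18 with a whole pair left out under the replicate block. Leaving out arrays or pairs, the differences ranged as follows: Abca1 -0.39 to 0.43, Acat2 -0.55 to 0.16, Acly -0.16 to 0.17, Cyp51 -0.029 to 0.19, Dhcr7 -0.38 to 0.57, Elovl6 -0.15 to 0.16, Fads1 -0.29 to 0.33, Fads2 -0.48 to 0.40, Fasn -0.087 to 0.34, Fdft1 -0.31 to 0.48, Fdps -0.31 to 0.37, Hmgcs1 -0.38 to 0.43, Idi1 -0.27 to 0.43, Insig2 -0.40 to 0.31, Lss -0.26 to 0.21, Mvk -0.28 to 0.33, Nr1h2 -0.092 to 0.62, Nsdhl -0.26 to 0.28, Sc4mol -0.16 to 0.35, Sc5d -0.41 to 0.17, Scap -0.069 to 0.25, Scd1 -0.53 to 0.34, Scd2 -0.30 to 0.29, Sqle -0.037 to 0.43, Srebf1 -0.23 to 0.13, Srebf2 -0.14 to 0.22. Otherwise the sign changed under normexp background correction for Abca1 (-0.078), Acly (0.11), Elovl6 (-0.039), Fads1 (-0.16), Fads2 (0.086), Hmgcs1 (-0.096), Sc5d (0.044) and Scd1 (0.0058), and with the mean of a gene's probes for Fasn (-0.058), Hmgcs1 (-0.030) and Sc5d (0.018). The cause of these last changes was not tested. The 6 that kept their sign were Acaca, Insig1, Mvd, Nr1h3, Pmvk and Stard4.

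The median difference of the members was between -0.17 and 0.19 without single arrays and between -0.03 and 0.03 without pairs. Under the authors' table Mvd, Cyp51 and Lss lost the number call (adjusted p = 0.0995, 0.171 and 0.0576), as did Lss with no filter (0.0666) and Mvd with the trend and robust fit (0.0892), and these 3 also did so in some settings with arrays left out. Between replicate numbers 21 to 30 members were called over the settings, and of 638 member tests 62 were lost and 8 gained. The shares of all genes that lost or gained the call were not counted. Of all genes, 5771 to 11214 were called with arrays or numbers left out, against 10121 with all arrays, and 15399 with no filter on dim probes, where more genes were tested. The median deviation of the enzymes was -0.76 to -0.36 at number 1, -0.75 to -0.23 at number 2, 0.50 to 0.94 at number 3 and 0.24 to 0.62 at number 4 with arrays left out. It was -0.53, -0.39 and 0.50 at numbers 1 to 3 with normexp, -0.37 and 0.61 at 2 and 3 with quantile normalization and with the authors' table, 0.61 at 3 with no filter, and -0.41 and 0.54 at 2 and 3 with the mean of probes. Signal over background limited Fads1, Hmgcs1, Ebp, Hsd17b7 and Abcg1.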
